A study of Mus musculus with 2 samples.

Results

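Cytosolic ribosomal protein genes encode the proteins of the ribosome that translates nuclear mRNAs. They were described here in cells sorted as epithelial from growing mouse hair follicles. The members were all probe sets annotated to 1 gene symbol of the Rpl, Rps, Rplp or Rpsa series, leaving out the Rps6k kinases and symbols marked as pseudogenes. This gave 106 probe sets of 50 genes, of 18193 genes with a probe set of their own on the array. Of these, 43 genes were standard proteins of the ribosome (21 of the small subunit, 20 of the large subunit and 2 of its stalk) and 6 were paralogs. The remaining gene was Rps19bp1, which the symbol pattern took in although its product binds the ribosomal protein Rps19 and is itself no ribosomal protein.

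The mice were CD-1 pups at postnatal day 4 that carried K14-RFP, a red reporter under the promoter of the basal keratinocyte gene keratin 14, and Sox9-EGFP, a green reporter for the follicle stem cell factor Sox9. Early bulge cells were sorted as red-high and green-high. Cells of the non-bulge outer root sheath (ORS) were sorted as red-high and green-negative. The bulge is where follicle stem cells reside and the ORS is the outer epithelial layer of the follicle. Both samples came from back skin freed of interfollicular epidermis, and the sort gates left out dead cells and large differentiated ones in both. How many animals stood behind each sample is not stated in the labels. Each sample was measured on 1 array, so no value has a replicate check, no test between the populations was possible, and every ratio describes these 2 arrays.

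The cytosolic ribosome has a small subunit, which reads the mRNA, and a large subunit, which joins the amino acids. Its proteins are needed in near equal numbers, and their mRNAs are among the most abundant of a growing cell. Most of these mRNAs begin with a run of pyrimidines, the 5′ terminal oligopyrimidine (TOP) motif, through which the mTOR kinase controls their translation, so that an mRNA level does not give the rate at which the protein is made. Skin is known to react to a shortage of some ribosomal proteins: mouse mutants in Rps19 and Rps20 have dark skin through p53 in keratinocytes. In adult follicles, low protein synthesis has been described for bulge stem cells.

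Values are linear signals per probe set, in the authors' MAS5 units, and a gene is represented by its brightest probe set. Signals below 57.8, the 40th percentile of both arrays, were set to that floor. Of the 50 genes, 48 reached the floor on at least 1 array. Rpl3l, a striated muscle paralog of Rpl3, had signals of 3.24 in early bulge and 17.6 in ORS. Rps16 had 4.16 in early bulge and 1.19 in ORS on its only probe set with that symbol alone. Both genes were below the floor on both arrays and have no ratio. All log2 ratios below are early bulge over ORS.

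The array as a whole set the frame for these values. The marker sum of dermal fibroblasts, over 6 genes, was 3027 in early bulge and 40725 in ORS, and all 6 were lower in early bulge. The 4 proliferation markers with a value summed to 35413 in early bulge and 44984 in ORS, with log2 ratios from -0.66 to -0.15. The 5 epithelial markers were all higher in early bulge, with sums of 65393.5 in early bulge and 35107 in ORS. Krt14 and Sox9 among them are the genes of the sort reporters. In ORS the sum of the 6 fibroblast markers was thus above that of the 5 epithelial ones. The 4 melanocyte markers summed to 1398 in early bulge and 1361 in ORS. Of 5 immune, endothelial and erythroid markers with a probe set, 4 were below the floor on both arrays. The part of these differences in the ribosomal protein ratios was not tested, and in sorted bulk samples fewer cells of a type and less RNA per cell cannot be told apart.

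Most ribosomal protein genes had slightly higher signals in early bulge, and hardly any differed by as much as 1.5-fold. Of the 48 measured genes, 35 were higher in early bulge, where 53.0% of all 13252 measured genes were, and 13 were lower, against 47.0% of all. Their median log2 ratio was 0.14, beside 0.04 over all measured genes. This lean did not hold under every alternative. After quantile normalization 23 genes were higher in early bulge and 24 lower (median -0.0011). Without the genes above the 99th percentile of signal 7 were higher and 10 lower (median -0.14). With only probe sets free of a suffix that marks shared probes, 13 were higher and 12 lower (median 0.013). At least 1.5-fold higher was 1 gene, Rps27, where 17.1% of all genes were. At least 1.5-fold lower were 2 genes, Rpl39l and Rpl12, where 12.8% of all genes were. None was at least 2-fold higher (7.30% of all genes) and 1, Rpl39l, was at least 2-fold lower (4.78% of all genes). These shares over all genes include many dim ones. Among probe sets of other genes, 35.7% differed by 1.5-fold or more at mean signals from the floor to 200, 6.82% between 10000 and 15000, and 0.990% above 15000, and 48 member probe sets lay in the last 2 of these ranges.

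**Figure D1:**
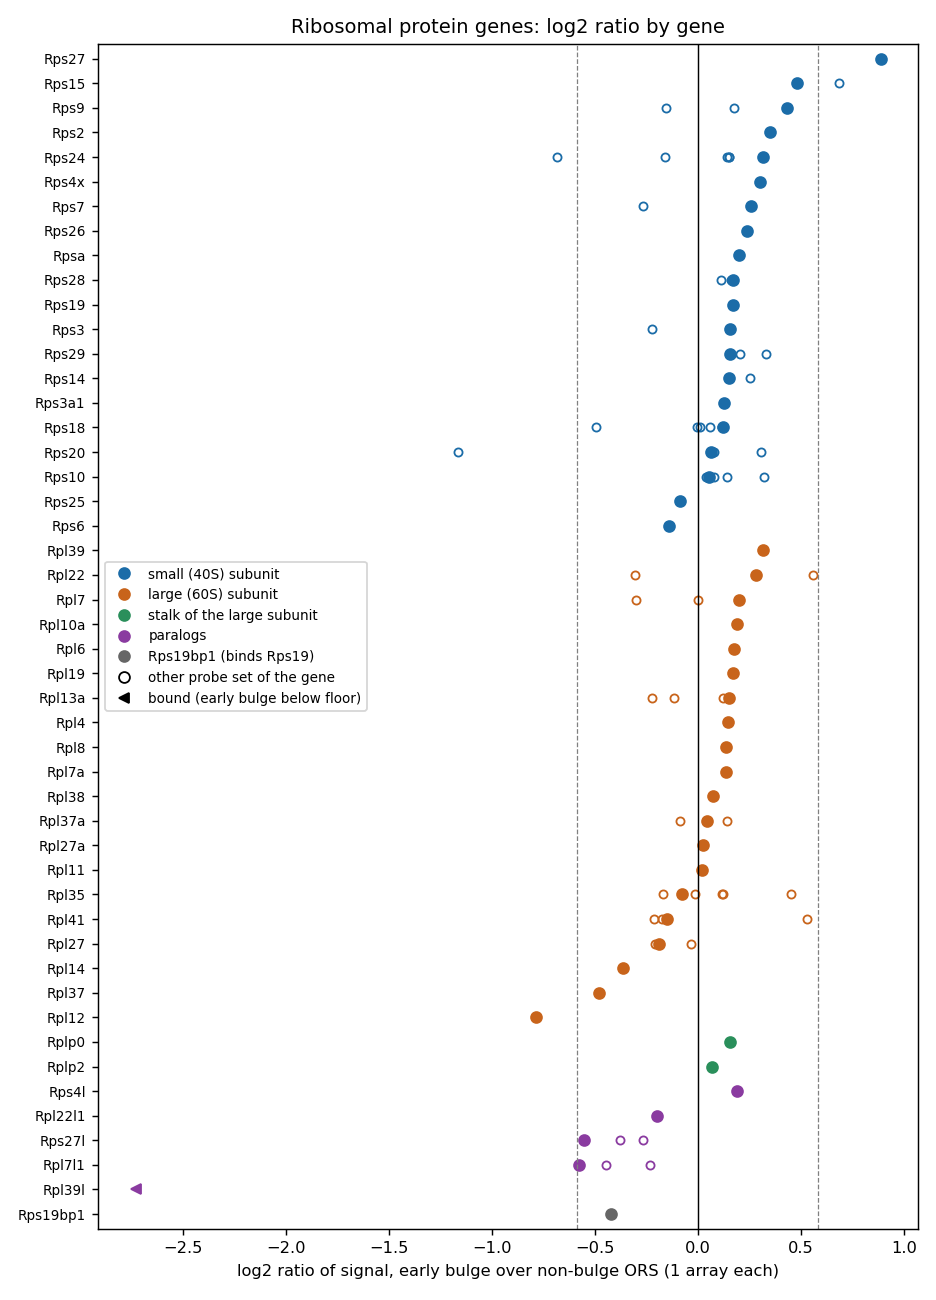
Log2 ratio of signal, early bulge over non-bulge ORS, for the 48 measured genes, 1 row a gene, grouped and coloured by role. Filled points are the brightest probe set, open points the gene's other measured probe sets, the triangle a bound, and dashed lines mark 1.5-fold. Most filled points lie just right of 0, only Rps27, Rpl12 and Rpl39l lie past the dashed lines, and 4 of the 5 measured paralogs lie left of 0.

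Genes of the small subunit leaned most evenly towards early bulge. Of 20 measured genes, 18 were higher in early bulge, where 53.0% of all measured genes were, and 2 lower. Their median log2 ratio was 0.17, and 0.030 after quantile normalization. Many of them were read above a mean signal of 15000, where 79.2% of the probe sets of other genes were higher too. Rps15, a protein of the subunit's head near the decoding site, had a signal of 9140 in early bulge, against 6540 in ORS, a ratio of 1.40-fold. Its second probe set, dimmer and without a shared-probe suffix, gave 2345 in early bulge and 1458 in ORS (log2 ratio 0.69), so both probe sets of Rps15 lay on the same side. Rps2, which lines the channel through which mRNA enters, had 18562 in early bulge and 14554 in ORS (1.28-fold). Rps4x, encoded on the X chromosome, had 22205 in early bulge and 17992 in ORS (1.23-fold). Rps26, which in yeast contacts mRNA upstream of the start codon, was 1.18-fold higher in early bulge, and Rpsa, which also gives rise to the laminin receptor of that name, was 1.15-fold higher (21357 and 18618).

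Rps27 had the largest ratio towards early bulge, 1.85-fold, with a signal of 236 in early bulge and 127 in ORS. Rps27 encodes a zinc finger protein of the small subunit. Its only probe set with that symbol alone was dim for a ribosomal protein gene, and its log2 ratio of 0.89 became 0.46 with the floor at the 60th percentile. Rps6, the small subunit protein phosphorylated by the S6 kinases downstream of mTOR, had 1872 in early bulge and 2064 in ORS (log2 ratio -0.14). Rps25, the other small subunit gene lower in early bulge, is known for its role in initiation at internal entry sites and had a log2 ratio of -0.09. Rps6 and Rps25 were measured on probe sets below a signal of 5000.

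The genes behind the dark skin mice were read on bright probe sets. Rps19 had a signal of 8365 in early bulge and 7433 in ORS (1.13-fold higher). Rps20 had 25186.5 in early bulge and 24075.6 in ORS (log2 ratio 0.07), the highest signal of any member on the ORS array. A second bright probe set of Rps20 gave 24394 in early bulge and 19737 in ORS (log2 ratio 0.31). A dim one gave 182 in early bulge and 408 in ORS, a log2 ratio of -1.16, and Rps20 thereby had the widest spread over probe sets of any member. Rps7, mutated in mice with skeletal and pigment defects, was 1.19-fold higher in early bulge on its brightest probe set (20083.5 and 16817). Its dimmer probe set gave 4399 in early bulge and 5293 in ORS (log2 ratio -0.27), on the other side of 0.

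Genes of the large subunit were less uniform. Of 20 measured genes, 14 were higher in early bulge and 6 lower, against 53.0% and 47.0% of all measured genes. Their median log2 ratio was 0.11. Several of them were read above a mean signal of 15000, where 79.2% of the probe sets of other genes were higher too. The largest ratio towards early bulge was that of Rpl39, a very short protein at the exit tunnel of the nascent chain, with 463 in early bulge and 371 in ORS (log2 ratio 0.32). Rpl22, an RNA-binding protein needed for T-cell development in mice, had 18204 in early bulge and 14979 in ORS (log2 ratio 0.28). Its other probe sets lay on both sides of 0, at -0.31 (7618 in early bulge and 9414 in ORS) and 0.56 (3334 in early bulge and 2263 in ORS). Rpl38, which in mice is needed for translation of Hox mRNAs and axial patterning, had 17519 in early bulge and 16634.5 in ORS (log2 ratio 0.07). Rpl11, which joins the 5S ribosomal RNA and can bind the p53 regulator Mdm2, had 9291 in early bulge and 9153 in ORS (log2 ratio 0.02). Rpl27a, whose mutation in mice also activates p53, had 1824 in early bulge and 1789.8 in ORS (log2 ratio 0.03). The signals of Rpl38, Rpl11 and Rpl27a were thus at most 1.05-fold apart, and the side of 0 turned for each of them after median centring or quantile normalization.

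Of the 6 large subunit genes lower in early bulge, 3 (Rpl12, Rpl37 and Rpl14) had a single probe set of their own, and it was below a signal of 5000. Rpl12, which sits at the base of the stalk, had 784 in early bulge and 1349.9 in ORS, 1.72-fold lower in early bulge. Rpl37, a zinc-binding protein, had 2535 in early bulge and 3539.8 in ORS, 1.40-fold lower, and Rpl14 had 1108 in early bulge and 1425 in ORS, 1.29-fold lower. The other 3 were bright. Rpl27 was lower in early bulge on all 3 of its probe sets, with log2 ratios from -0.21 to -0.03 and 12188 in early bulge against 13905 in ORS on the brightest. Rpl41, which encodes the shortest protein of the ribosome, had log2 ratios of -0.15, -0.17 and -0.21 on 3 probe sets and 0.53 on the remaining one. Rpl35, chosen here after its values were seen, had 17430 in early bulge and 18362 in ORS (log2 ratio -0.08) on the brightest of 6 probe sets, which ran from -0.17 to 0.45. The stalk, which recruits the elongation factors, was measured by 2 of its 3 genes. Rplp0 had 19147 in early bulge and 17176 in ORS (log2 ratio 0.16), and Rplp2 had 18771 in early bulge and 17883 in ORS (log2 ratio 0.07).

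Groups that cut across the subunits, drawn from the genes counted above, had similar values. Diamond-Blackfan anaemia is a human failure of red cell formation caused by loss of a ribosomal protein gene copy. Of 18 listed genes whose mutation causes it in humans, 11 were measured. In early bulge 9 of them were higher and 2 lower, against 53.0% and 47.0% of all measured genes. Their median log2 ratio was 0.17, between -0.19 for Rpl27 and 0.89 for Rps27. At the rim of the exit tunnel, where the nascent chain leaves the ribosome, 4 of 8 listed genes were measured. Rpl19, Rpl22 and Rpl39 were higher in early bulge, where 53.0% of all measured genes were, and Rpl35 lower, with a median of 0.23.

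The paralogs ran the other way. Of 5 measured, 4 were lower in early bulge, where 47.0% of all measured genes were, and 1 was higher, with a median log2 ratio of -0.55. Rpl39l, a paralog of Rpl39 best known from the testis, had a signal of 36.9 in early bulge, below the floor, against 384 in ORS. It was at least 6.64-fold lower in early bulge, the largest difference of any ribosomal protein gene on these arrays, from a single probe set. Rpl7l1, a paralog of Rpl7, had 1992 in early bulge and 2973 in ORS on its brightest probe set (1.49-fold lower). All 3 probe sets of Rpl7l1 were lower in early bulge, with log2 ratios of -0.58, -0.45 and -0.23. Rps27l, a paralog of Rps27 that p53 induces in human cells, had 4013 in early bulge and 5888 in ORS (1.47-fold lower), and its 3 probe sets had log2 ratios of -0.55, -0.27 and -0.38. None of these 6 probe sets of Rpl7l1 and Rps27l lay above 0. Rpl22l1, which in mice is repressed by its partner Rpl22, had 8126 in early bulge and 9331 in ORS (log2 ratio -0.20). Rps4l, related to Rps4x, was the exception, with 616 in early bulge and 540.3 in ORS (log2 ratio 0.19). Rps19bp1, set apart above, had 499 in early bulge and 668 in ORS (log2 ratio -0.42).

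Set beside its partner gene, each of the 5 paralogs had the lower ratio. The difference in log2 ratio, paralog minus partner, was -3.05 or lower for Rpl39l against Rpl39, since Rpl39l was below the floor in early bulge. It was -1.44 for Rps27l against Rps27 and -0.78 for Rpl7l1 against Rpl7. It was -0.48 for Rpl22l1 against Rpl22 and -0.11 for Rps4l against Rps4x. Paralog and partner were read at unlike signals. Rpl7, Rpl22 and Rps4x were above a mean signal of 15000, where probe sets of other genes had a median of 0.14. At the signals of Rpl7l1, Rpl22l1 and Rps4l it was -0.09, -0.06 and 0.04. For Rps27l and Rps27 it was -0.09 and 0.21, and for Rpl39l and Rpl39 it was 0.21 and 0.04. The part of signal level was not tested. The spread of probe sets bears on the paralog differences as well. Over 109 pairs of probe sets of the same ribosomal protein gene, the root mean square difference in log2 ratio was 0.40. The difference of Rps4l was smaller than that, and those of Rpl39l, Rps27l, Rpl7l1 and Rpl22l1 were larger. The pairs are not independent, since genes with up to 6 probe sets give many of them. Rpl39, Rpl39l, Rps27, Rps4l and Rpl22l1 gave no pair, with 1 measured probe set each, so the spread of their own ratios is not known. The Rpl22 pair rests on which Rpl22 probe set is read, since 1 of them (-0.31) lay below Rpl22l1. In the Rpl7 pair too the probe sets overlapped, since 1 of Rpl7 (-0.30) lay below 1 of Rpl7l1 (-0.23). The Rps27 pair rests on 1 dim probe set of Rps27, whose log2 ratio of 0.89 became 0.46 with the floor at the 60th percentile.

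**Figure D2:**
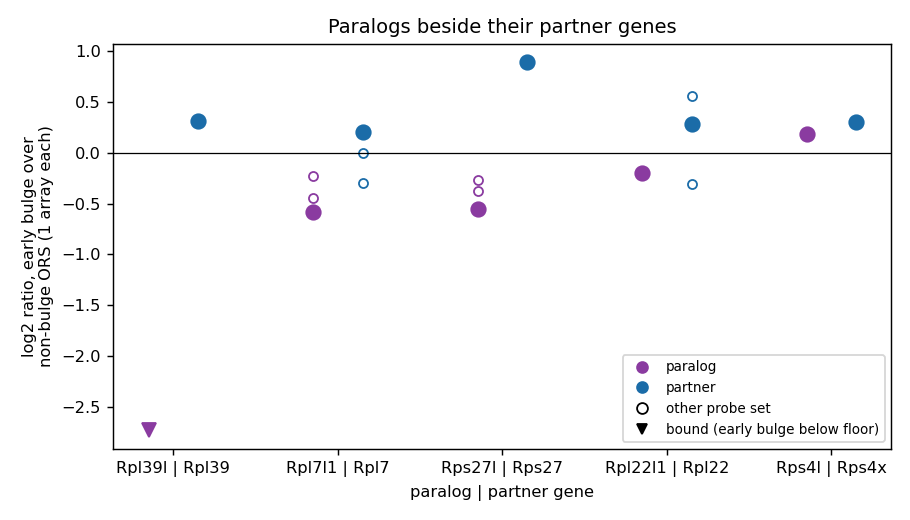
Log2 ratio of signal, early bulge over non-bulge ORS, for 5 paralogs (purple) beside their partner genes (blue). Filled symbols are the brightest probe set, open symbols other probe sets, and the triangle is a bound. Each filled paralog lies below its filled partner, from -2.73 against 0.32 for Rpl39l and Rpl39 to 0.19 against 0.30 for Rps4l and Rps4x, and open symbols of Rpl7 and Rpl22 reach down among the paralog values.

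The annotated starts of these genes were searched for the pyrimidine run by which TOP mRNAs are known, and most did not hold it at the annotated base. RefSeq promoter windows (GRCm38.p6, 250 bases before and 50 after the annotated start) were matched for 44 of the 50 genes. A C at the annotated start followed by at least 4 C or T stood in 8 of these 44 genes (18.2%), against 3.01% of 27025 genes with a window. All 8 are among the 38 standard genes with a window (21.1%), of which the others lacked it, as did the 5 paralogs with a window. Annotated starts can be a few bases off. A C followed by 4 C or T beginning within 10 bases of the start on either side was found in 27 of the 44 genes (61.4%), against 34.4% of all genes, in 60.5% of the standard genes and in 4 of the 5 paralogs. The 8 starts with the motif are given with 15 bases on each side, to show the motif. The starts of the 4 paralogs that were lower in early bulge follow because their ratios are described above. As in most standard genes, their annotated starts do not hold it. Capitals mark the run of pyrimidines that begins with C at the start. Rps27l is shown at the first of its 2 annotated starts.
Rps6, chr4:86857353-86857382, minus strand: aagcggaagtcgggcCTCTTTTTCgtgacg
Rps10, chr17:27635230-27635259, minus strand: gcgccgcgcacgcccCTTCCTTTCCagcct
Rps18, chr17:33955651-33955680, minus strand: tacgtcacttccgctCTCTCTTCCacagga
Rps27, chr3:90213634-90213663, minus strand: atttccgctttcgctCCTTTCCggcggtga
Rpl14, chr9:120571502-120571531, plus strand: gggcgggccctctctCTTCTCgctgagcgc
Rpl35, chr2:39005117-39005146, minus strand: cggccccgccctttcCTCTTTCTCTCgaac
Rpl38, chr11:114668565-114668594, plus strand: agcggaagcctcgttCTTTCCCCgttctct
Rplp2, chr7:141447636-141447665, plus strand: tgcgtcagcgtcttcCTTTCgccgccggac
Rpl39l, chr16:10170213-10170242, plus strand: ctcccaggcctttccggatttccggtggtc
Rpl7l1, chr17:46782642-46782671, minus strand: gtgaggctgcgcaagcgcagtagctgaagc
Rps27l, chr9:66946071-66946100, plus strand: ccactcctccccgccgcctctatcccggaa
Rpl22l1, chr3:28805493-28805522, plus strand: gtgcggcgcaagcccgttctcttcccacgg

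Further motifs were searched on both strands of the same windows. CCGGAAG, the core bound by ETS factors such as GABP, was in 21 of 44 ribosomal protein genes (47.7%), against 9.93% of all genes. ATGGCG, part of the YY1 motif, which can also arise from a start codon, was in 16 of them (36.4%), against 10.2% of all genes. TATAAA was in 6 (13.6%), against 15.7% of all genes. Median log2 ratios with and without a motif differed both ways. The 21 measured genes with CCGGAAG had a median log2 ratio of 0.07 and the 21 without it 0.16. The 8 with the pyrimidine start had a median of 0.06 and the other 34 measured genes with a window 0.15, while the 26 with a run near the start had 0.14 and the 16 without 0.09. The 16 with ATGGCG had 0.02 and the 26 without it 0.16. Among those 16 were the 4 paralogs lower in early bulge (Rpl39l, Rpl7l1, Rps27l and Rpl22l1), beside 12 standard genes. The 6 with TATAAA had 0.23 and the 36 without it 0.10. None of these differences was tested. A match is a description of the letters in the window and not a bound site.

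The signals of these genes lie at the top of the array's range, which limits what a ratio can show. On the early bulge array 46 of the 106 probe sets were above the 99th percentile of all probe sets (a signal of 10869), and on the ORS array 44 were (10539). The brightest member probe set in early bulge was one of Rpl13a at 25299.8, where the brightest of all probe sets had 28952. In ORS it was that of Rps20 at 24076, where the brightest of all had 25506. Array signals flatten as they near their maximum, and equal signals there do not show equal mRNA. In the brightest range, a mean signal above 15000, all 30 member probe sets had log2 ratios between -0.08 and 0.35.

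Probe sets of other genes had a similar median at the bright end, and below it the medians lay apart by varying amounts. Above a mean signal of 15000, 28 of 30 ribosomal protein probe sets were higher in early bulge, with a median log2 ratio of 0.16. The 101 probe sets of other genes in that range had a median of 0.14, and 79.2% of them were higher in early bulge. Between 10000 and 15000 the medians were 0.09 over 18 member probe sets and 0.04 over 264 others. Between 1000 and 5000 the median was -0.22 over 20 member probe sets, 14 of them lower in early bulge, and -0.09 over 5479 others. Between 5000 and 10000 the median was -0.12 over 13 members, 7 of them lower, and -0.06 over 896 others. Between 200 and 1000 the sides differed, with -0.12 over 10 members and 0.04 over 9962 others. From the floor to 200 both medians were above 0, with 0.15 over 7 members and 0.21 over 9704 others. Over the 99 measured member probe sets, 63 were higher in early bulge, where 53.5% of all measured probe sets were, and 36 were lower, against 46.5% of all. Log2 ratio and mean log2 signal were correlated with a Spearman coefficient of 0.36 across these 99 probe sets, and of 0.30 across the 89 of standard ribosomal proteins. These probe sets share 2 arrays and often a gene and are not independent.

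**Figure D3:**
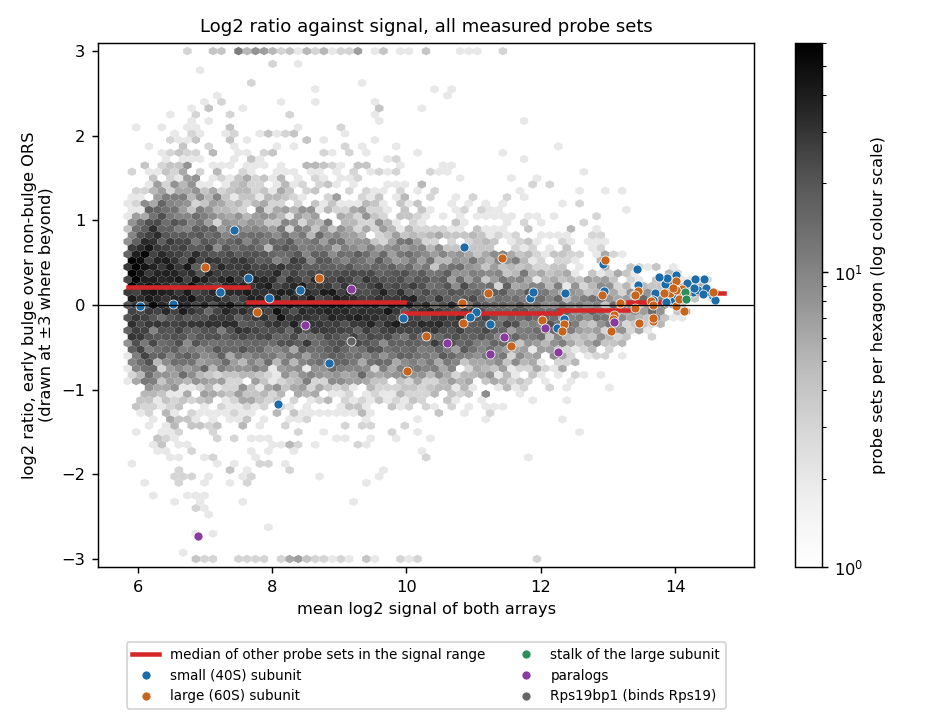
Log2 ratio of signal, early bulge over non-bulge ORS, against the mean log2 signal of both arrays, for all measured probe sets with a mean signal at or above the floor (grey hexagons, darker for more probe sets). Coloured points are ribosomal protein probe sets by role, and red lines are the median of probe sets of other genes in each signal range. At the bright end the members and the red line both lie above 0 (medians of 0.16 and 0.14), and between 1000 and 5000 both lie below it (-0.22 and -0.09).

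Bright and dim genes were also set side by side within the standard ribosomal proteins. Of 34 such genes whose brightest probe set was at or above 5000, 31 were higher in early bulge, with a median log2 ratio of 0.16 and a range from -0.19 to 0.48. Of 8 whose brightest probe set was dimmer, 3 were higher and 5 lower, with a median of -0.11 and a range from -0.78 to 0.89. Counted by probe set, the lean of the dim ones towards ORS was not there: of 29 standard probe sets below 5000, 14 were higher and 15 lower, with a median of -0.0065. In the 20 genes with 2 or more measured probe sets, 12 had probe sets on both sides of 0. In 10 of the 20 the dimmest probe set had a lower ratio than the brightest. Rps24, a gene mutated in Diamond-Blackfan anaemia in humans, had 6 measured probe sets that ran from 16830 in early bulge and 13524.5 in ORS (log2 ratio 0.32) to 364 in early bulge and 585 in ORS (log2 ratio -0.68). Rps9, chosen here after its values were seen, had 12814 in early bulge and 9500.2 in ORS on its brightest probe set (1.35-fold higher), and log2 ratios of -0.15 and 0.18 on the others.

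Ribosomal protein genes are known for their many processed pseudogenes, and shared probe sets are common among them. Of the 106 probe sets, 71 had a suffix by which the array marks probes that match several transcripts or genes, and 35 had none. The suffix was a for 28 of them, s for 3 and x for 40. The share of such probe sets over the whole array was not computed. The median signal of the 35 was 463 in early bulge and 540.3 in ORS. For the 40 with the suffix x, the class most open to cross-hybridisation, it was 13440.0 in early bulge and 13045 in ORS. With only probe sets free of a suffix, 25 genes were measured, 13 higher and 12 lower in early bulge, with a median log2 ratio of 0.01. A further 110 probe sets carried several symbols, among them 46 ribosomal protein symbols, of which 31 had no probe set of their own. Of the 105 of these that were measured, 72 were higher and 33 lower in early bulge, with a median log2 ratio of 0.10. The 77 at or above a signal of 5000 had a median of 0.16 and the 28 dimmer ones -0.10. They are given as counts, and no gene is named from them. Of 77 standard ribosomal protein genes on the list used, 43 therefore had a probe set of their own, and the other 34 were not analysed here by name.

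Other mRNAs of the TOP type, among them elongation factors and subunits of initiation factor 3, went both ways. Of 18 measured, 7 were higher and 11 lower in early bulge, against 53.0% and 47.0% of all measured genes. Their median log2 ratio was -0.07. None differed by 1.5-fold, where 17.1% of all genes were that much higher and 12.8% that much lower. Their signals ran from the range of 1000 to 5000 to above 15000. Among probe sets of other genes, 24.8% differed by 1.5-fold or more in the first of these ranges and 0.990% in the last. Eef1a1, which brings aminoacyl-tRNA to the ribosome, had 22256 in early bulge and 17346 in ORS (log2 ratio 0.36). Tpt1, the translationally controlled tumour protein, had 19309 in early bulge and 15067 in ORS (log2 ratio 0.36). Eif3l, a subunit of initiation factor 3, had 4353 in early bulge and 5825 in ORS (log2 ratio -0.42), and the helicase cofactor Eif4b had 3601 in early bulge and 4531 in ORS (log2 ratio -0.33). Fau, whose product is cut to release a small subunit protein, had 7214 in early bulge and 6705 in ORS (log2 ratio 0.11). Eef1a1 and Tpt1 thus lay above 0, and Eif3l and Eif4b below it, although Eif3l had another probe set at 0.19.

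Genes that control translation of TOP mRNAs, listed together with the transcription factor gene Myc, were mostly a little lower in early bulge. Of 11 measured on this list, 3 were higher and 8 lower, against 53.0% and 47.0% of all measured genes. In each direction 1 was past 1.5-fold, and the median log2 ratio was -0.15. Eif4ebp1, the cap-binding inhibitor that mTOR phosphorylates, had 2467 in early bulge and 3904 in ORS, 1.58-fold lower. Another probe set of Eif4ebp1 gave a log2 ratio of -0.03. Myc, a transcription factor that drives ribosome production, had 1566 in early bulge and 994 in ORS, 1.58-fold higher. Rps6kb2, an S6 kinase, had 191 in early bulge and 247 in ORS (log2 ratio -0.37), and Eif4ebp2 had 909.7 in early bulge and 1146 in ORS (log2 ratio -0.33). Myc and Eif4ebp1 thus lay on opposite sides of 0.

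Chaperones and assembly factors, which bring ribosomal proteins to the maturing ribosome, had lower signals in early bulge. This held for all 7 measured, where 47.0% of all measured genes were lower, and their median log2 ratio was -0.55. Past 1.5-fold were 2 of the 7, where 12.8% of all genes were at least 1.5-fold lower. At these signals, probe sets outside the ribosomal protein genes had medians of 0.04 (200 to 1000) and -0.09 (1000 to 5000). Grwd1, whose yeast counterpart is the chaperone of the Rpl3 protein, had 1347 in early bulge and 2720.5 in ORS, 2.02-fold lower, although another probe set of Grwd1 gave a log2 ratio of -0.26. Ltv1, a small subunit assembly factor, had 611 in early bulge and 966 in ORS (1.58-fold lower). Heatr3, which in human cells takes part in assembling the 5S RNA with Rpl5 and Rpl11, had 585 in early bulge and 864 in ORS (log2 ratio -0.56). Pdcd2, in human cells the chaperone of the Rps2 protein, had 699.9 in early bulge and 1024 in ORS (log2 ratio -0.55), while Rps2 itself was higher in early bulge. The proliferation markers given above were lower in early bulge too, and their part in these values was not tested.

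The mitochondrial ribosome, built from a separate set of nuclear genes, had lower signals in early bulge for most of its genes. Of 76 measured mitochondrial ribosomal protein genes, 6 were higher in early bulge and 70 lower, against 53.0% and 47.0% of all measured genes. Their median log2 ratio was -0.36, and 13 (17.1%) were lower by 1.5-fold or more, against 12.8% of all genes. The cytosolic genes had 35 higher and 13 lower with a median of 0.14, a side of 0 that was lost after quantile normalization and without the brightest genes. With 1 array per population this difference could not be tested. The mitochondrial genes were not set beside genes of like signal. Medians of probe sets outside the cytosolic ribosomal protein genes ran from -0.09 (1000 to 5000) to 0.21 (floor to 200) over the signal ranges. A start with C followed by 4 C or T stood in 0 of 69 mitochondrial ribosomal protein genes with a promoter window, whereas CCGGAAG was in 26 of them (37.7%).

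**Figure D4:**
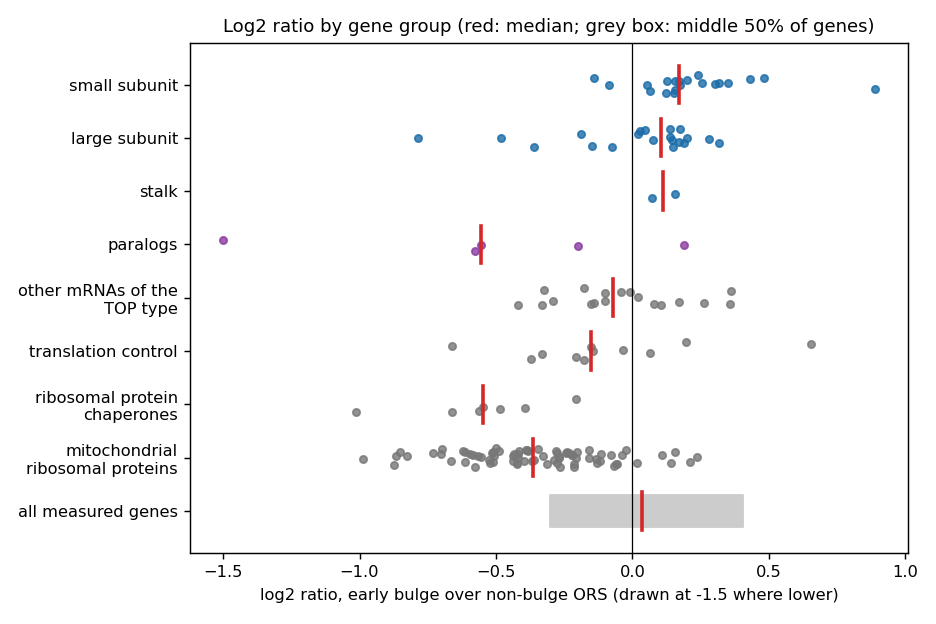
Log2 ratio of signal, early bulge over non-bulge ORS, for each measured gene (points) of the ribosomal protein groups and of related gene groups, with the median in red and the middle 50% of all measured genes as a grey box. The small subunit (median 0.17), large subunit (0.11) and stalk (0.11) lie right of 0, and the paralogs (-0.55), the chaperones (-0.55) and the mitochondrial ribosomal proteins (-0.36) lie left of it.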

How the data were processed

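RNA of 2 sorted populations was hybridised to 1 Affymetrix expression array each. The deposited values are intensity on a linear scale, which the authors computed by MAS5 (Affymetrix Expression Console), going by the submitters' processing notes. No version or genome build is named there. Both arrays had a 2% trimmed mean of 500.003, the mark of a common scaling target. In MAS5 mismatch probes are subtracted and low values are noisy. Symbols came from the platform annotation, and all 50 member genes were found by Entrez ID in RefSeq genes (GRCm38.p6) with no symbol changed. Of all probe sets, 34958 had 1 symbol, 932 several and 9160 other non-control probe sets none. The 64 control probe sets were left out.

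Signals were floored at 57.8 and log2 ratios taken with Python 3.11.15 and pandas 2.3.3. Genes were counted at any size, 1.5-fold and 2-fold. With 1 array per group there was no test, and the number of arrays limits the precision. Lists are given by counts and medians beside all measured genes. Named members were the 8 largest ratios each way among genes with both arrays above the floor and all probe sets on one side, genes past 1.5-fold, the stalk, the paralogs, Rps6, genes tied to p53 or to mouse mutants, and the 4 with the widest spread over probe sets. Of each related list the 4 largest absolute ratios were named. A gene outside these rules, such as Rps25, Rpl35, Rpl13a and Rps9, was chosen after its values were seen. The members and lists were chosen with earlier results of these data known. The procedure was tested on simulated data. Protein sequences were not used here.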

Additional observations from a re-analysis of the deposited data

How the results depend on the processing

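The lean of the ribosomal protein genes towards early bulge changed with the scaling and with the genes kept. Their median log2 ratio of 0.14 was 0.11 after median centring and 0.08 after loess scaling (span 0.4). It was -0.0011 after quantile normalization, with 23 genes higher and 24 lower, and the medians of the small subunit, the large subunit and the stalk were then 0.030, 0.00094 and -0.018. Without the genes above the 99th percentile of signal the median was -0.14, with 7 genes higher and 10 lower, and that of the large subunit was -0.17. The median of the small subunit was then 0.17, the value of Rps19. Of its other genes left, Rps27 (0.89) and Rps15 (0.48) were higher in early bulge, and Rps25 (-0.09) and Rps6 (-0.14) lower. The 17 genes left include the 5 paralogs and Rps19bp1. With probe sets without a suffix the median was 0.013, with 13 genes higher, and the medians of the large subunit and of other TOP mRNAs were -0.032 and -0.22, while 2 genes were at least 1.5-fold higher. The cause was not tested, beyond what these alternatives remove by construction.

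Counts past a fold were small and moved with the floor and the unit counted. At least 1.5-fold higher were 0 genes once the floor was raised to the 60th percentile and 2 without a floor, and 1 was then at least 2-fold higher and 2 at least 2-fold lower. At least 1.5-fold lower were 4 genes after median centring. In the lists of standard proteins alone, 8 genes were lower, 1 by 1.5-fold and 0 by 2-fold. Counting each of 99 probe sets gave 63 higher and 36 lower, 2 and 4 of them by 1.5-fold, and 2 at least 2-fold lower. With shared probe sets added, an alternative chosen after seeing the data, 135 of 204 were higher and 69 lower, 4 by 1.5-fold each way and 2 at least 2-fold lower.

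The median of the paralogs stayed below 0 under every alternative that has one, which the lists of standard proteins alone do not, and Rps4l stayed above 0. Their median of -0.55 was -0.45 with a pseudocount of 50, -0.40 with the mean over probe sets and -0.38 per probe set, with or without shared ones. Rpl39l was at -1.16 under the 60th percentile floor and at -3.38 with no floor. The medians of the chaperones and the mitochondrial ribosomal proteins kept their sign and moved by less than 0.1 under every alternative run. Among named genes, Rpl22 turned to -0.31 with probe sets without a suffix, and Rps24 to -0.68 there and to -0.014 with the mean over probe sets. Genes near 0 turned too: Rpl11, Rpl38, Rplp2 and Rps20 after quantile normalization, Rpl11 and Rpl27a after median centring, Rps20 after loess scaling, and Rps20 and Rps7 with the mean over probe sets. Scaling moved the median of all genes by less than 0.1. No paired analysis was possible because each group has 1 array. No replicate could be left out.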
